A study of Mus musculus with 12 samples.

Results

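Fatty acid oxidation was described through 41 genes of mitochondrial and peroxisomal enzymes, transporters and partner proteins in mouse liver. Members were taken by gene symbol, and each was read from the brightest of the probe sets annotated to it alone, that is, the one with the highest mean signal over the 12 arrays. Of the 41 genes, 40 had such a probe set, out of 18193 genes with one on the array, and all 40 passed the filter on low signals. Acsl1 was not analysed here. By textbook location, 18 of the 40 were taken as mitochondrial, 14 as peroxisomal and 8 as belonging to several or other compartments.

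The study asked how low-dose cadmium (LDC) from the start of life alters hepatic gene expression in each sex. Livers of 30-week-old C57BL/6J offspring were compared in 4 groups of 3 arrays each: LDC male, Control male, LDC female and Control female. LDC mice drank 100 nM cadmium chloride and their dams had received it from 1 week before mating, whereas control mice and their dams drank plain water. Each array is labelled a biological replicate, and the labels do not say which litters the mice came from. P-values therefore measure the spread between these samples. Signals are MAS 5.0 intensities on a linear scale from Affymetrix Mouse Genome 430 2.0 arrays.

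Mitochondrial beta-oxidation shortens long-chain and medium-chain fatty acids after the carnitine shuttle has carried them across the inner membrane, and feeds the respiratory chain and ketone body synthesis. Peroxisomal beta-oxidation takes very long-chain, branched-chain and dicarboxylic acids and bile acid intermediates, which mitochondria handle poorly, and passes shortened chains on. In rodent liver both pathways are classical targets of the nuclear receptor PPAR alpha, and many liver genes differ between the sexes under the pattern of growth hormone release, in part through STAT5.

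Promoter sequences are shown for the members whose sex difference in control mice was called with all arrays and with any single array left out, apart from Abcd2, and for Hadha and Hadhb, which share a promoter. Windows of 250 bases before the start site came from a table of RefSeq promoters (GRCm38.p6), in which 33 of the 41 members matched. Those of Acaa2, Decr1, Acat1, Hsd17b4, Abcd2, Crat, Amacr and Abcd4 were not used here. Each is written 5′ to 3′ on the strand of its gene, and capitals mark a match to AGGTCA, the single site bound by nuclear receptors, or to TTCNNNGAA, the core of a STAT5 site. Pex11a lies at chr7:79743132-79743381 (minus strand), Phyh at chr2:4918746-4918995 (plus), Scp2 at chr4:108118548-108118797 (minus), Hacl1 at chr14:31640966-31641215 (minus) and Acsl3 at chr1:78657575-78657824 (plus). The Scp2 window precedes a start site inside the gene, which spans chr4:108043830-108144971, and not its outer end. Hadha and Hadhb, which encode both subunits of the trifunctional protein, are read away from each other from start sites 273 bases apart, and the 228 bases at chr5:30155003-30155230, given on the plus strand as Hadhb is read, lie in the windows of both.
Pex11a: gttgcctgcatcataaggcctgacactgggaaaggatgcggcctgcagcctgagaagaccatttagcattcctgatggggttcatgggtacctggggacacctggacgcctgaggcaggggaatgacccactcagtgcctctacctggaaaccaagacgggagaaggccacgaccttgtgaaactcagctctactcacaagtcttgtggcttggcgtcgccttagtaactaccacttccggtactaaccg
Phyh: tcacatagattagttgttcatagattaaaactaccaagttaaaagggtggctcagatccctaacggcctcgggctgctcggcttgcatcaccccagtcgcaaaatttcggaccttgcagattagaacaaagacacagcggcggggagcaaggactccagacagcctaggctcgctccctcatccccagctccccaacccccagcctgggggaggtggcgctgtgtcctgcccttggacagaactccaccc
Scp2: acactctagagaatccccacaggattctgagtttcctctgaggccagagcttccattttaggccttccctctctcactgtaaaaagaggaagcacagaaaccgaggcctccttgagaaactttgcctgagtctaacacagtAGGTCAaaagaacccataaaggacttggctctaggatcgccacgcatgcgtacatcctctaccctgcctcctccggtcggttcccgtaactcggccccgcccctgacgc
Hacl1: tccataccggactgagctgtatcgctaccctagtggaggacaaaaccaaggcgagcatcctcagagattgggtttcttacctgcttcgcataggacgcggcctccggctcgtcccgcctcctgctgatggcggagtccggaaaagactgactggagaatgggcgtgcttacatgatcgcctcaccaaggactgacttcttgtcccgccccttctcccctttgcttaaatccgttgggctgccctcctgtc
Acsl3: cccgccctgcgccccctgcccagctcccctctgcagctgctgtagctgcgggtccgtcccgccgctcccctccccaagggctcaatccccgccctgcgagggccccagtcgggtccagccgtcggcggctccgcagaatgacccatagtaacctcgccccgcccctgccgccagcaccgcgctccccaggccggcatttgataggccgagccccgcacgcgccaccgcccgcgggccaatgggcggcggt
Hadha and Hadhb: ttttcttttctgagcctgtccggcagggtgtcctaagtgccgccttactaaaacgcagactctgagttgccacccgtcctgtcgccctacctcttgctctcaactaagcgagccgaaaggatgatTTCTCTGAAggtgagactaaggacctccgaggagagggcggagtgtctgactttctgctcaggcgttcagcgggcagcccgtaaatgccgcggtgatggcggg

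Searched on both strands, AGGTCA stood in the windows of 3 of the 33 members (Acadm, Acadvl and Scp2), against 14% of all 32851 promoter windows of this length. The direct repeat of AGGTCA with 1 base of any kind between its copies, the form bound by PPAR alpha with its partner RXR, stood in 0 members and in 0.0335% of all windows. TTCNNNGAA stood in those of Cpt2, Hadha and Hadhb, against 7.02% of all windows. Of the shown windows, that of Acsl3 had the highest GC content, 75.6%, and that of Scp2 the lowest, 53.6%. The Hadha and Hadhb match is a single one in the shared stretch. A match is a stretch of letters only, and these windows leave out distant sites.

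All arrays had been scaled by the authors to a common trimmed mean, and their median signals lay between 95.09 and 110.3. Arrays correlated with those of their own group at a mean r of 0.863 to 0.88. Hepatocyte markers were present on every array, with 0 of 7 called for LDC in either sex and 1, Hnf4a, called between control males and control females. The summed signal of 7 macrophage and Kupffer cell markers varied widely within both female groups. It was 6079 to 27105 in LDC females and 14757 to 37165 in control females. In males it was 17277 to 23706 with LDC and 11922 to 12380 in controls. In bulk liver, fewer cells of a type and less RNA per cell cannot be told apart. Signals of the members averaged 7.27 to 15.20 on the log2 scale (median 13.15), and 28 of 40 lay at 12 or above, where the spread between arrays is small.

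The clearest pattern in these genes was a difference between the sexes. In control mice, 15 of 40 members passed the test (limma, adjusted p under 0.05 over 27022 probe sets), 11 higher and 4 lower in males. Over all probe sets tested 7.73% were called, 3.59% higher and 4.14% lower in males, and among the 1945 bright ones, at a log2 signal of 12 or above, 19.5%. Of the 14 peroxisomal members 9 were called, 7 higher and 2 lower in males (median log2 difference 0.38), and of the 18 mitochondrial members 4 were called, all higher in males (median 0.14), while the median over all probe sets tested was -0.0167. Without Control female 1 the peroxisomal median was 0.31 and the mitochondrial one 0.06. The difference between the compartments itself was not tested. With each array centred on its median in place of the scaling deposited, 6 members were called, 2 higher and 4 lower in males, while the peroxisomal median stayed at 0.32 and the mitochondrial one at 0.08. Fewer passed without Control female 1 or Control male 2 (7 in each case) or without Control male 1 (8). Calls over all probe sets changed as well, from 969 higher and 1119 lower to 663 and 1306 with the centring. They were 649 and 709 without Control female 1, 603 and 748 without Control male 2, and 749 and 965 without Control male 1.

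**Figure D1:**
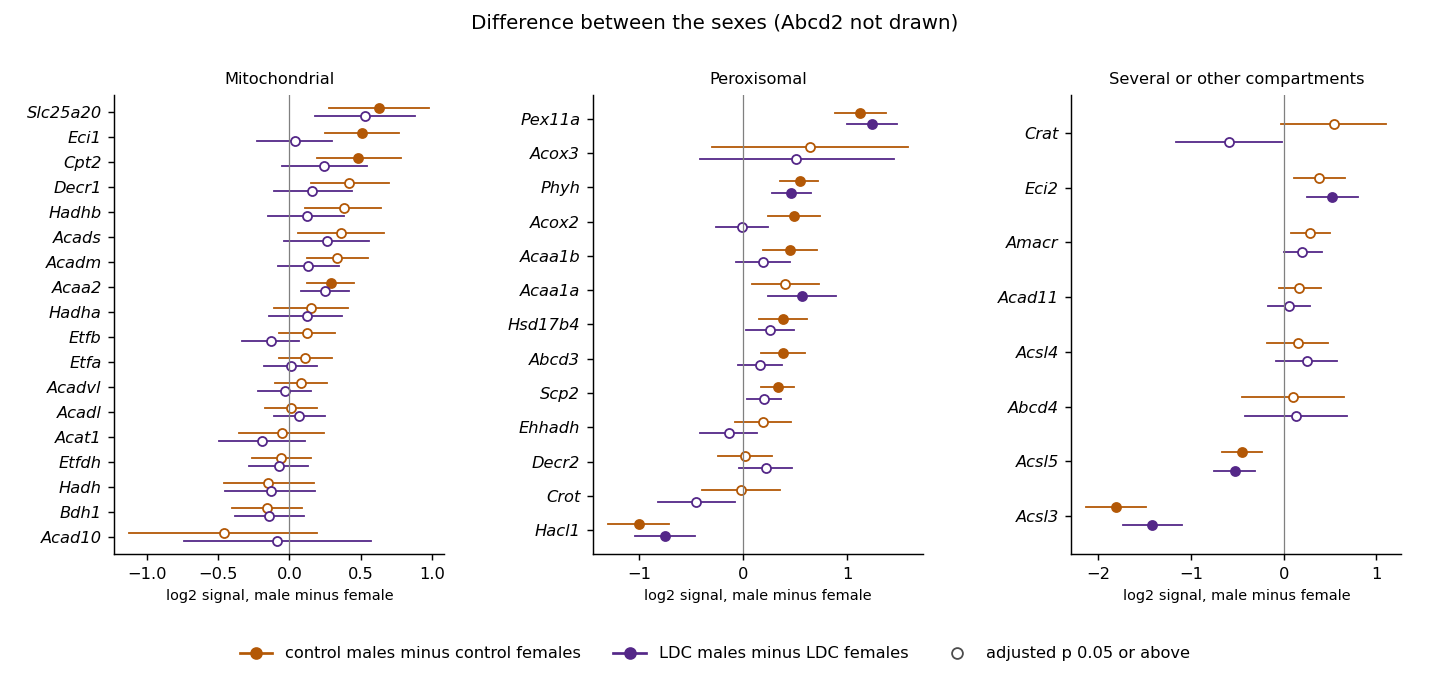
Log2 difference in signal of each member, males minus females, in control mice (orange) and LDC mice (purple), with 95% confidence intervals from the limma fit; filled points had an adjusted p under 0.05 and Abcd2 is left out for its scale. Pex11a (1.12 and 1.24) lies farthest to the right and Acsl3 (-1.81 and -1.42) farthest to the left, and most mitochondrial members lie within 0.5 of zero.

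Pex11a, a peroxisomal membrane protein that acts in the division and proliferation of peroxisomes, had the largest male excess among the members called. Its signal was 4688, 4800 and 4310 in control males, against 1929, 2186 and 2218 in control females. In LDC mice it was 5612, 4705 and 4844 in males, against 2073, 1918 and 2431 in females. Every male array lay above every female array. The log2 difference between the sexes was 1.12 ± 0.11 (SE, n = 3 each) in control mice (limma, adjusted p = 2.89e-05) and 1.24 ± 0.11 in LDC mice (adjusted p = 1.37e-05). A second probe set gave 1.29 in control mice and 1.41 in LDC mice.

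Phyh and Hacl1 encode consecutive enzymes of alpha-oxidation, the peroxisomal pathway that removes 1 carbon from phytanic acid and other branched-chain fatty acids, and their sex differences ran in opposite directions. Phyh, phytanoyl-CoA hydroxylase, had signals of 42627, 37982 and 36911 in control males, against 24114, 28559 and 28370 in control females. In LDC mice these were 38941, 41433 and 39024 in males, against 27894, 28202 and 30608 in females. All male arrays were above all female arrays, by 0.54 ± 0.09 in control mice (adjusted p = 0.00135) and 0.46 ± 0.09 in LDC mice (adjusted p = 0.00416).

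Hacl1, the lyase that cleaves the hydroxylated product of Phyh, was lower in males. Control males had 8744, 9124 and 10008, against 15444, 18446 and 22586 in control females. LDC males had 11321, 7965 and 9795, against 15329, 17035 and 16097 in LDC females. No male array reached the lowest female array. The log2 difference was -1.0 ± 0.14 in control mice (adjusted p = 0.000433) and -0.75 ± 0.14 in LDC mice (adjusted p = 0.00382). The calls for Pex11a, Phyh and Hacl1 held without any single array.

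Among the enzymes that carry out the peroxisomal beta-oxidation cycle, Acox2, the oxidase for branched-chain substrates and bile acid intermediates, had 7924, 7148 and 6680 in control males, against 5331, 6038 and 4274 in control females. That is a difference of 0.49 ± 0.12 (adjusted p = 0.0205), with every control male above every control female. Hsd17b4, the D-bifunctional protein of the following steps, had 11522, 12603 and 9416 in control males, against 8480, 9272 and 7916 in control females (0.38 ± 0.11, adjusted p = 0.0435). Acaa1b, a thiolase of the last step, had 40606, 38548 and 30102 in control males, against 22641, 25748 and 31581 in control females (0.45 ± 0.12, adjusted p = 0.0354), and these overlapped. In LDC mice the difference was -0.01 for Acox2, 0.26 for Hsd17b4 and 0.19 for Acaa1b, and none was called.

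These 3 calls were fragile. Acox2 lost its call without Control female 3 (adjusted p = 0.0671), Control male 1 (0.0733) or Control male 2 (0.056). Hsd17b4 kept its call only without Control female 2 or Control male 3, and its adjusted p reached 0.173 without Control male 2. Acaa1b lost its call without Control female 1 (0.139), Control female 2 (0.0762), LDC female 2 (0.0508), Control male 1 (0.122) or Control male 2 (0.121). The second probe set of Hsd17b4 gave 0.45 (adjusted p = 0.012).

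Scp2 encodes sterol carrier protein and a thiolase for branched chains. It had 44453, 40610 and 41914 in control males, against 31163, 34657 and 35231 in control females (0.33 ± 0.07, adjusted p = 0.0125). The arrays did not overlap, and the call held without any single array, but the other 3 probe sets of Scp2 gave 0.12, 0.23 and 0.30 and were not called. In LDC mice its signals were 40588, 40893 and 38749 in males, against 33564, 36295 and 34904 in females (0.20 ± 0.07, adjusted p = 0.137). Its window, before a start site inside the gene, was the only one of the shown set to hold AGGTCA.

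Abcd3, the membrane transporter that brings branched-chain and dicarboxylic acyl-CoA into peroxisomes, had 25314, 24380 and 21242 in control males, against 15844, 18291 and 20503 in control females. The difference was 0.38 ± 0.10 (adjusted p = 0.0304) in control mice and 0.16 in LDC mice (adjusted p = 0.424). In control mice the highest female array lay just below the lowest male array. The call was lost without Control female 1 (adjusted p = 0.117), Control female 2 (0.0528), Control male 1 (0.0976) or Control male 2 (0.0979).

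Acaa1a, the other peroxisomal thiolase gene, was called in LDC mice, with 1626, 1394 and 1758 in males, against 935, 1007 and 1319 in females (0.56 ± 0.15, adjusted p = 0.0408). In control mice it had 1230, 1234 and 1366 in males, against 892, 1113 and 902 in females (0.40 ± 0.15, adjusted p = 0.131). A second probe set gave 0.13 (adjusted p = 0.76) in LDC mice, and Acaa1a and Acaa1b are near-identical paralogs whose probes may bind both transcripts, so the level of Acaa1a is uncertain. Its call was also lost without LDC female 1 (0.165), LDC female 2 (0.138), LDC male 1 (0.115), LDC male 3 (0.158), Control male 1 (0.0516) or Control male 2 (0.0556).

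The 4 mitochondrial members called in control mice were all higher in males. Slc25a20 is the carrier that exchanges acylcarnitine for carnitine across the inner membrane. It had 6434, 7602 and 6132 in control males, against 3293, 4405 and 5560 in control females (0.63 ± 0.16, adjusted p = 0.0296), with no overlap. In LDC mice it had 8571, 6183 and 6989 in males, against 4953, 4725 and 5275 in females, also without overlap (0.53 ± 0.16, adjusted p = 0.0745). Cpt2, which rebuilds acyl-CoA on the matrix side, had 4719, 4265 and 4225 in control males, against 2454, 3542 and 3599 in control females (0.48 ± 0.14, adjusted p = 0.0462). A dim second probe set of Cpt2 gave -0.64 (adjusted p = 0.503).

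Eci1 moves the double bond of unsaturated acyl-CoA so that the cycle can go on. It had 7556, 7175 and 6049 in control males, against 4076, 5888 and 4745 in control females (0.51 ± 0.12, adjusted p = 0.0203). LDC males had 6635, 6823 and 6337, against 6737, 6196 and 6380 in LDC females, and these overlapped (0.04 ± 0.12). Acaa2, the thiolase of the mitochondrial cycle, had 20949, 20597 and 19042 in control males, against 15132, 17657 and 16974 in control females (0.29 ± 0.08, adjusted p = 0.038). In LDC mice Acaa2 had 19043, 19938 and 19585 in males, against 16628, 15753 and 16890 in females (0.25 ± 0.08, adjusted p = 0.0783), and no male array overlapped a female one in either exposure group.

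All 4 mitochondrial calls were lost without Control female 1, where the adjusted p was 0.111 for Slc25a20 (log2 difference 0.44), 0.16 for Cpt2 (0.30), 0.0807 for Eci1 (0.38) and 0.139 for Acaa2 (0.22). They were also lost without Control male 1, at an adjusted p of 0.0565 for Slc25a20, 0.132 for Cpt2, 0.0721 for Eci1 and 0.103 for Acaa2. Without Control male 2 it was 0.117, 0.0944, 0.0733 and 0.11 in the same order of genes. Slc25a20 was lost without Control female 2 as well (0.0513), and Eci1 without Control female 3 (0.0549). Cpt2 kept its call only without Control female 2, Control female 3 or LDC female 1. At its brightest probe set, Acaa2 kept its call only without Control female 2 or Control male 3. Its other probe sets gave 0.49 (adjusted p = 0.00256) and 0.36 (adjusted p = 0.0188) in control mice. Both were called, and their male and female arrays did not overlap. The acyl-CoA dehydrogenases for successive chain lengths were not called in control mice. Their sex differences were 0.08 for Acadvl (95% confidence interval -0.10 to 0.26), 0.01 for Acadl (-0.17 to 0.19), 0.33 for Acadm (0.12 to 0.55, arrays apart, adjusted p = 0.0592) and 0.36 for Acads (0.06 to 0.66, adjusted p = 0.149). The flavoprotein subunits Etfa and Etfb, which take up their electrons, gave 0.11 (-0.07 to 0.30) and 0.12 (-0.07 to 0.32).

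Long-chain acyl-CoA synthetases activate fatty acids before either pathway, and 2 of them were lower in males. Acsl3, found on the endoplasmic reticulum and lipid droplets, had 434, 514 and 418 in control males, against 1466, 1636 and 1675 in control females (-1.81 ± 0.15, adjusted p = 4.64e-06). In LDC mice it had 716, 565 and 718 in males, against 1783, 2031 and 1548 in females (-1.42 ± 0.15, adjusted p = 4.73e-05). Every male array was far below every female array.

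Acsl5, found on the endoplasmic reticulum and the outer mitochondrial membrane, had 11317, 10154 and 8902 in control males, against 14869, 13375 and 13090 in control females (-0.45 ± 0.10, adjusted p = 0.0153). In LDC mice it had 9598, 10056 and 8666 in males, against 13119, 14950 and 12864 in females (-0.53 ± 0.10, adjusted p = 0.00568). Male and female arrays did not overlap in either comparison. The control call was lost without Control female 1 (adjusted p = 0.0603) or Control male 3 (0.0677). Acsl4, which prefers arachidonate, differed by 0.15 in control mice and was not called, although the third probe set gave 0.61 (adjusted p = 0.0262).

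**Figure D2:**
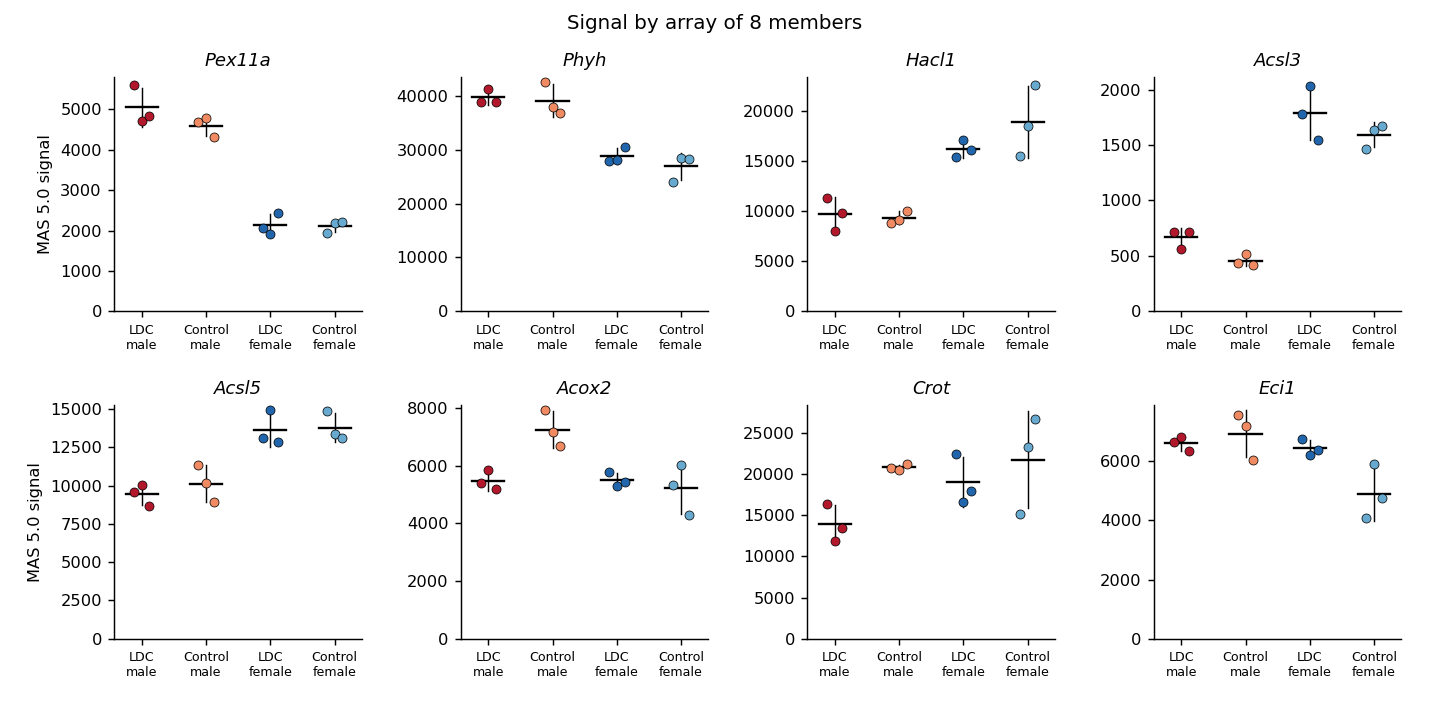
MAS 5.0 signal of 8 members on every array (points), with the group mean (bar) and SD (line), n = 3 arrays per group, on linear axes that start at 0. Pex11a and Phyh were higher, and Hacl1, Acsl3 and Acsl5 lower, on all male arrays, while Acox2 and Crot were lower on all LDC male arrays than on all control male arrays.

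In LDC mice 8 of 40 members differed between the sexes, 4 higher and 4 lower in males, beside 6.29% of all probe sets tested (3% higher and 3.29% lower) and 15.1% of the bright ones. Pex11a, Phyh and Acaa1a of the peroxisomal members and Eci2 were higher in males, and Abcd2, Hacl1, Acsl3 and Acsl5 were lower. Eci2, an isomerase for unsaturated chains with peroxisomal and mitochondrial forms, had 10460, 9264 and 10351 in LDC males, against 6550, 6874 and 7486 in LDC females (0.52 ± 0.13, adjusted p = 0.0244). Its arrays did not overlap, but the call was lost without LDC female 1 (adjusted p = 0.0933), LDC female 2 (0.0819), LDC male 1 (0.0869) or LDC male 3 (0.0897). The methods' t-test called 1 member in all, Abcd2, beside 172 higher and 153 lower of all 27022 probe sets. None of the 18 mitochondrial members was called by limma, 2 had an unadjusted p under 0.05 (beside 18.9% of all probe sets), and their median was 0.05, or -0.03 with each array centred on its median. The peroxisomal median was 0.19, or 0.11 with that centring.

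The calls in both exposure groups were Abcd2, Acsl3, Acsl5, Hacl1, Pex11a and Phyh, which make up 40% of the control calls and 75% of the LDC calls. Of the 17 members called in either, 16 had the same sign in both, the exception being Acox2. The control difference was the larger one for 13 of the 15 control calls. These were chosen by that difference, which favours such a count, so no shrinkage in LDC mice can be read from it. For the 2 members called in LDC mice only, the LDC difference was the larger one (Acaa1a 0.56 against 0.40, Eci2 0.52 against 0.38). For none of the 17 did the difference between both exposure groups pass the test (smallest adjusted p = 0.339), so a call in 1 group only is not a difference shown between them. The count in LDC mice fell to 5 without LDC female 1, LDC female 2 or LDC male 3, and was 5 (1 higher and 4 lower) with each array centred on its median. Of all probe sets, 592 were called higher and 515 lower without LDC female 1, and 579 and 495 without LDC female 2. Without LDC male 3 these were 504 and 550, and with the centring 608 and 1181. All arrays as deposited gave 812 and 889.

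Markers of other cells also differed between the sexes. Alas2 was the only one of the red cell markers to be tested, and it was higher in males by 2.88 in control mice and 1.99 in LDC mice, both called. The summed red cell signal, over 2 of 4 markers, was 1674 to 2550 in LDC males, 2539 to 3890 in control males, 408 to 617 in LDC females and 340 to 505 in control females. Cidec, a lipid droplet protein of adipocytes and fatty liver, was higher in control males by 3.54 (adjusted p = 0.00647), while Adipoq and Lep, which define adipocytes, stayed too dim to be tested. The summed adipocyte signal, over 3 of 6 markers, was 227 to 341 in LDC males, 177 to 275 in control males, 58.1 to 139 in LDC females and 58.2 to 167 in control females. Neutrophil markers S100a8, S100a9 and Ngp were lower in control males than in control females, by values of -2.02, -1.82 and -1.57, and higher in LDC males than in LDC females, by 2.58, 2.23 and 1.42, all called. Of the remaining lists, Hnf4a, a transcription factor of hepatocytes, was called higher in control males (0.37, adjusted p = 0.0446), as was the pancreatic elastase Cela1 (1.09, adjusted p = 0.00421), and the stellate cell gene Lrat was called lower (-0.98, adjusted p = 0.00175). In LDC mice none of these 3 was called at its brightest probe set, while the third probe set of Hnf4a was called in control mice (0.89) and in LDC mice (0.63). The part of these markers in the sex differences was not tested.

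Abcd2 encodes the peroxisomal transporter for very long-chain and polyunsaturated acyl-CoA, a close relative of the adrenoleukodystrophy protein, and it was the member with the widest range. Its brightest probe set had 128, 91.6 and 78.5 in LDC males and 61.5, 1.31 and 11.2 in control males. It had 1149, 1317 and 1279 in LDC females and 1380, 1274 and 1243 in control females. Every male array was far below every female array, and the LDC males lay above all control males. The sex difference was -7.07 ± 0.88 in control mice (adjusted p = 0.000201) and -3.68 ± 0.88 in LDC mice (adjusted p = 0.0218).

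LDC males exceeded control males in Abcd2 by 3.33 ± 0.88 on the log2 scale (95% confidence interval 1.44 to 5.22), which did not pass the test (adjusted p = 0.164). In females the difference was -0.06 (-1.95 to 1.83), and the difference between the sexes in the LDC effect was 3.39 (adjusted p = 0.376). Of the control male signals, 2 of 3 lay below 48.6, the signal at which probe sets were filtered, so the size of the fold is uncertain. The mean log2 signal was 6.60 in LDC males and 3.27 in control males, against 10.28 in LDC females and 10.34 in control females. With the filter at 5.6, the probe set was tested because of its female arrays. With 32 added to each signal the male difference was 1.34 (adjusted p = 0.0832) and the control sex difference -4.70.

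Without Control male 1, whose Abcd2 signal was the highest of its group, the LDC difference in males was 4.67 (adjusted p = 0.00816) and the difference between the sexes 4.72 (adjusted p = 0.0414). A second probe set had 145, 220 and 130 in LDC males and 81, 3.82 and 6.31 in control males, a difference of 3.69 (adjusted p = 0.0738). The third had 50.1, 152 and 27.8 in LDC males and 11.8, 49 and 4.36 in control males, a difference of 2.13 (adjusted p = 0.334), and these overlapped. The sex difference in LDC mice was not called at the second probe set (-2.41, adjusted p = 0.0844). At the brightest it was lost without any 1 of the LDC female arrays (adjusted p = 0.0614, 0.0746 and 0.0667 for arrays 1 to 3), LDC male 2 (0.07) or LDC male 3 (0.0778).

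**Figure D3:**
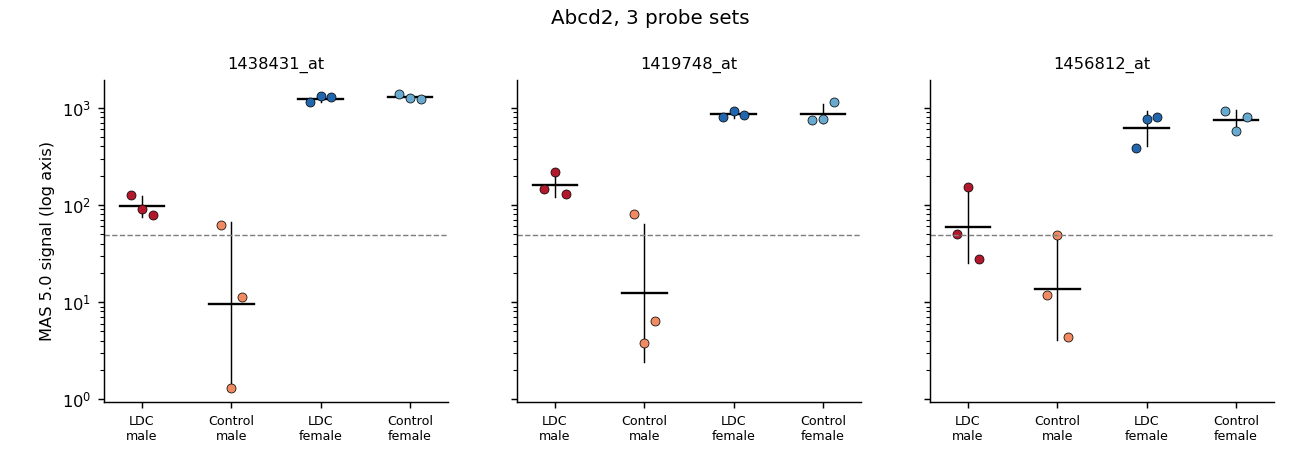
MAS 5.0 signal of 3 probe sets of Abcd2, brightest on the left, on each array (points, log axis), with the geometric mean (bar) and SD on the log2 scale (line) of each group, n = 3 arrays; the dashed line is the filter at 48.6. Female arrays lie between 383 and 1380 and male arrays between 1.31 and 220 at these probe sets.

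Among the other members, LDC in males gave no call. Of the 40 members 0 passed the test (limma, smallest adjusted p = 0.164), against 0.278% of all probe sets. The methods' t-test, with the same adjustment, called 0 of all 27022 probe sets, so its lack of member calls tells nothing about them. The methods' array rule was a 2-fold change with an unadjusted p under 0.05. On the limma fit, 1 member, Abcd2, met it (unadjusted p = 0.00198), beside 3% of all probe sets. At an unadjusted p under 0.05 there were 4 higher and 3 lower, or 7 of 40, where 10.2% of all probe sets passed. The 95% confidence interval of the LDC difference lay within 1 of zero for 37 members and within 0.5 for 30, so changes beyond 2-fold lay outside the interval for most. Mitochondrial members had a median of 0.02 (11 positive and 7 negative) and peroxisomal members one of 0.05 (10 positive and 4 negative), while the median over all probe sets was 0.001. Without Control male 3 these medians were -0.03 (7 positive and 11 negative) and -0.02 (6 positive and 8 negative). Without LDC male 1 the mitochondrial median was -0.02 (8 positive and 10 negative) and the peroxisomal one 0.03. The signs thus depended on single arrays. Without Control male 1 there were 2 calls, Abcd2 and Acad10, beside 60 higher and 31 lower of all probe sets.

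The lowest LDC differences in males were those of Crat (-0.64, on arrays that overlapped), Crot and Acox2. Crot, the carnitine octanoyltransferase that prepares chains shortened in the peroxisome for export, had 16419, 11932 and 13425 in LDC males, against 20741, 20508 and 21175 in control males. Acox2 had 5386, 5865 and 5175 in LDC males, against 7924, 7148 and 6680 in control males. Both sets of arrays were apart, with differences of -0.59 ± 0.17 (95% confidence interval -0.97 to -0.22, adjusted p = 0.23) for Crot and -0.40 ± 0.12 (-0.65 to -0.15, adjusted p = 0.223) for Acox2. Amacr, the racemase that readies branched-chain substrates for Acox2, and Etfb were also below on every LDC male array, by values of -0.17 and -0.13.

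On the higher side, Decr2, the peroxisomal reductase for polyunsaturated chains, had 5570, 5320 and 5822 in LDC males, against 4467, 4730 and 3685 in control males (0.38 ± 0.12, adjusted p = 0.273). Acsl3 had 716, 565 and 718 in LDC males, against 434, 514 and 418 in control males, and differed by 0.55 ± 0.15 (0.23 to 0.87, adjusted p = 0.184), with other probe sets at 0.32 and -0.95. Abcd2, Acsl3, Decr2, Acaa1a and Bdh1, a ketone body dehydrogenase, were the 5 members with all LDC males above all control males, and Crot, Acox2, Amacr and Etfb the 4 with all below. That makes 9 of 40, where 16.5% of all probe sets did one or the other. The second probe set of Acaa1a went the other way, with a difference of -0.33 (adjusted p = 0.546) against 0.31 at the brightest.

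Of the dim mitochondrial dehydrogenase homolog Acad10, LDC males had 454, 623 and 460, against 502, 245 and 176 in control males, which overlapped (0.86 ± 0.31, adjusted p = 0.344). Without Control male 1 the difference was 1.29 (adjusted p = 0.0403). Acadl, the long-chain dehydrogenase, had 13676, 12563 and 13266 in LDC males, against 12620, 11460 and 11915 in control males (0.13 ± 0.08). Bdh1 had 9169, 8984 and 9699 in LDC males, against 8542, 8705 and 7670 in control males (0.16 ± 0.11). Neither of the last pair came near the threshold, with adjusted p = 0.635 for Acadl and 0.682 for Bdh1.

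**Figure D4:**
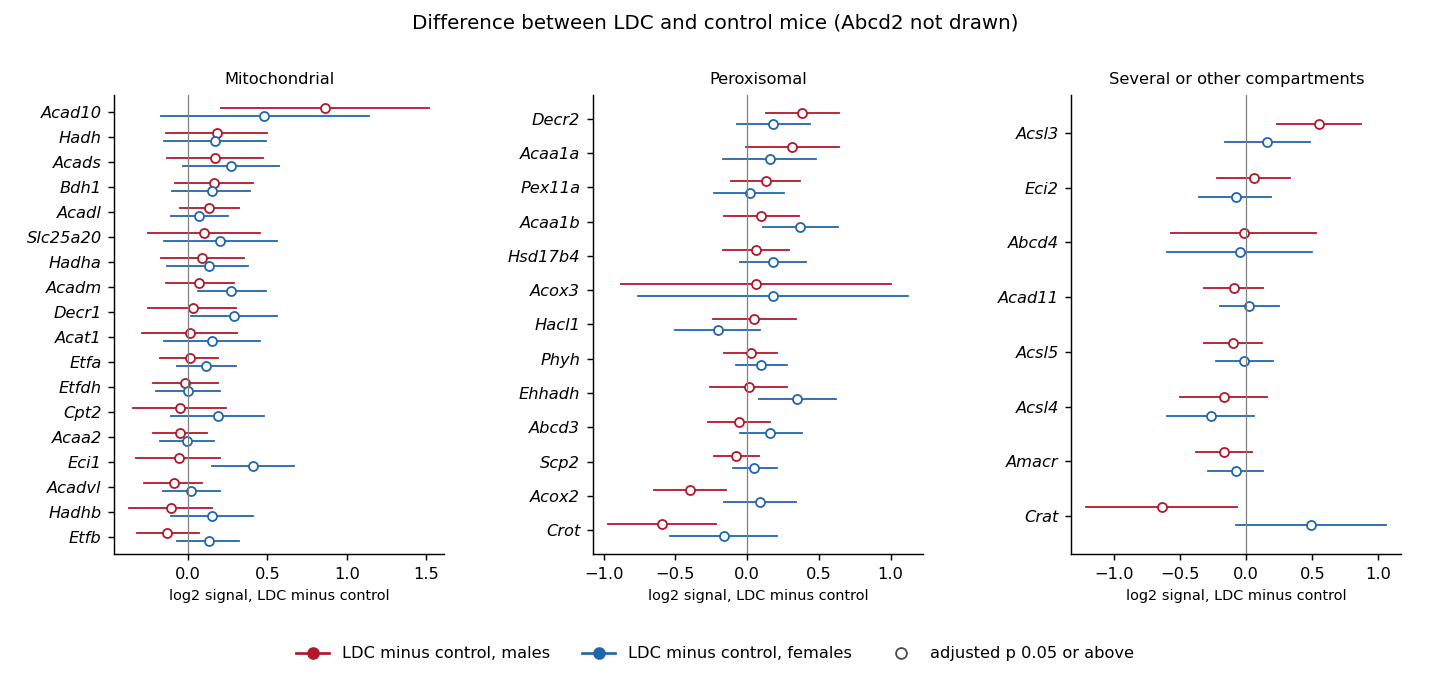
Log2 difference in signal of each member, LDC minus control, in males (red) and females (blue), with 95% confidence intervals from the limma fit; every point is open because none had an adjusted p under 0.05, and Abcd2 is left out for its scale. Mitochondrial points of females lie at or to the right of zero except for 1, with a median of 0.15.

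In females 0 of 40 members passed the test for LDC (limma, smallest adjusted p = 0.29), against 0.122% of all probe sets. The methods' t-test again called 0 of all probe sets tested. At an unadjusted p under 0.05 there were 5, all higher in LDC females, where 9.01% of all probe sets passed. The confidence interval lay within 1 of zero for 36 members and within 0.5 for 27. Mitochondrial members had a median of 0.15, with 17 positive and 1 negative, and peroxisomal members one of 0.13, with 11 positive and 3 negative, beside 0.0056 over all probe sets.

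For the mitochondrial members this common direction rested on 1 array. Control female 1 had the lowest signal of all 12 arrays for 15 of 18 mitochondrial, 5 of 14 peroxisomal and 4 of 8 other members. It was the lowest for 11.8% of all probe sets tested and for 23% of the bright ones. Without it, 11 mitochondrial members were positive and 7 negative in LDC females (median 0.01), and 9 peroxisomal members were positive and 5 negative (median 0.07). The peroxisomal median was also lower without LDC female 3 (0.06). The same array had the highest signal for 6 of the 7 macrophage and Kupffer cell markers, with a sum of 37165 against 6079 to 27105 on the other 11 arrays. Its ratio of 3′ to 5′ actin signal was 2.21, against 1.642 to 2.153 elsewhere. Their part in the low signals was not tested.

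The members nearest to the threshold in females were of both compartments. Eci1 had 6737, 6196 and 6380 in LDC females, against 4076, 5888 and 4745 in control females (0.41 ± 0.12, 95% confidence interval 0.15 to 0.67, adjusted p = 0.29). Acadm, the medium-chain dehydrogenase, had 19107, 17324 and 18957 in LDC females, against 13168, 16668 and 16214 in control females (0.27 ± 0.10, adjusted p = 0.428). Decr1, the mitochondrial counterpart of Decr2, had 9233, 8513 and 9180 in LDC females, against 5614, 8321 and 8449 in control females (0.29 ± 0.13, adjusted p = 0.522). All LDC females lay above all control females for each of these.

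Of the peroxisomal members, Acaa1b had 32942, 34167 and 35115 in LDC females, against 22641, 25748 and 31581 in control females (0.37 ± 0.12, adjusted p = 0.357). Ehhadh, the L-bifunctional protein, had 13345, 11690 and 11091 in LDC females, against 9906, 9070 and 9320 in control females (0.35 ± 0.13, adjusted p = 0.418). Both were without overlap, and for Ehhadh Control female 1 was the highest control rather than the lowest. Hsd17b4 had 9917, 9061 and 10029 in LDC females, against 8480, 9272 and 7916 in control females, which overlapped (0.18 ± 0.11, adjusted p = 0.664). In all, 6 members had every LDC female above every control female and 1, Acsl4, had every one below (2609, 2509 and 2683, against 3117, 2935 and 3380), beside 13.9% of all probe sets in either direction.

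Neutrophil markers moved with LDC in opposite directions in males and females. Of 6 markers 4 were tested, with S100a8 called higher in LDC males and S100a8, S100a9 and Ngp called lower in LDC females. The summed signal was 3045 to 3324 in LDC males, 1120 to 1535 in control males, 647 to 971 in LDC females and 3131 to 5896 in control females. Camp and Elane stayed below the filter on average. The summed macrophage and Kupffer cell signal was 17277 to 23706 in LDC males and 11922 to 12380 in control males, with 0 of 7 markers called. Their part in the values of the members was not tested.

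The difference of the LDC effect between the sexes, male minus female, was called for 0 of 40 members (limma, smallest adjusted p = 0.332). Of all probe sets 0.178% were called. The methods' t-test called 0 members, beside 10 higher and 11 lower of all 27022 probe sets. At an unadjusted p under 0.05 in limma there were 4 members, beside 10.3% of all probe sets. Crat, the carnitine acetyltransferase of mitochondria and peroxisomes, had the smallest p. It had 383, 480 and 309 in LDC males, against 624, 741 and 464 in control males, and 654, 515 and 574 in LDC females, against 266, 559 and 466 in control females. The LDC difference was -0.64 in males and 0.49 in females, with overlap in both, and -1.13 ± 0.38 between the sexes (adjusted p = 0.332). A second probe set of Crat gave 0.20 in males and -0.12 in females, the opposite signs, and the third, a dim one, -0.69 and 0.67, the same signs as the brightest.

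Acox2 and Eci1 gave differences between the sexes of -0.49 (95% confidence interval -0.85 to -0.14, adjusted p = 0.339) and -0.47 (-0.84 to -0.10, adjusted p = 0.375). Hadhb had 10865, 9884 and 9702 in LDC males, against 11015, 10501 and 11317 in control males, and 9362, 9507 and 9146 in LDC females, against 6707, 8488 and 10473 in control females (-0.26, adjusted p = 0.653). Hadha, which shares its promoter, had LDC differences of 0.09 in males and 0.13 in females, beside -0.11 and 0.15 for Hadhb. Etfb had 12427, 11613 and 12359 in LDC males, against 13971, 12639 and 13134 in control males, and 13446, 13004 and 13350 in LDC females, against 10453, 12795 and 13395 in control females. Its difference between the sexes was -0.25 (adjusted p = 0.534) and that of Ehhadh was -0.34 (adjusted p = 0.552). The mitochondrial median was -0.10, and 0.02 without Control female 1. The peroxisomal median was -0.12, and -0.04 without that array, -0.06 without LDC female 3 and -0.07 without Control male 1. Over the other settings it ranged from -0.15 to 0.01.

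**Figure D5:**
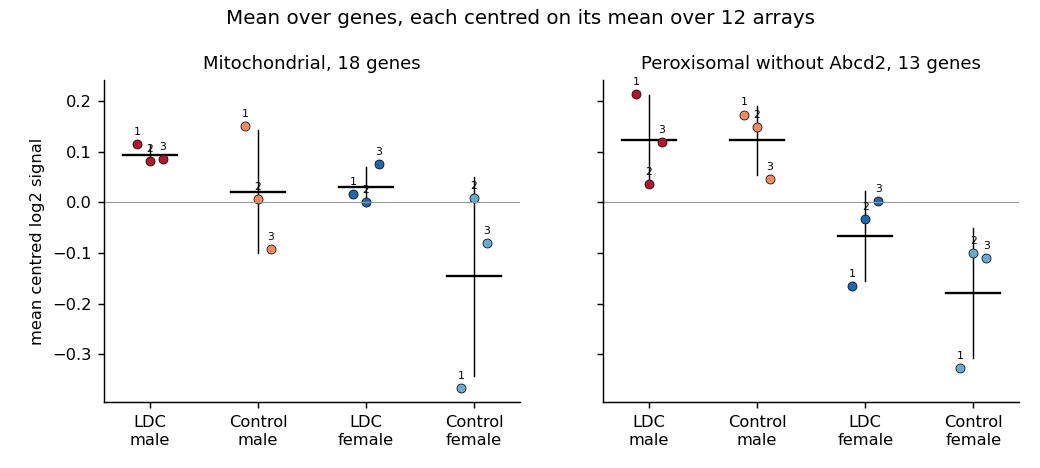
Mean over genes of the log2 signal on each array, after centring each gene on its mean over the 12 arrays, for 18 mitochondrial members and 13 peroxisomal members without Abcd2; numbers beside points are replicate numbers, bars are group means and lines SD (n = 3 arrays). Control female 1 lies at -0.366 in the mitochondrial panel, and all male arrays lie above all female arrays in the peroxisomal panel.

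Averaged over genes, both compartments could be followed array by array, with each gene centred on its own mean over the 12 arrays. For the mitochondrial members the averages were 0.114, 0.082 and 0.085 in LDC males, 0.150, 0.006 and -0.093 in control males, 0.016, 0.001 and 0.075 in LDC females and -0.366, 0.009 and -0.080 in control females. Males and females overlapped, and the 3 LDC males were the most alike. For the 13 peroxisomal members other than Abcd2 they were 0.213, 0.036 and 0.118 in LDC males, 0.173, 0.149 and 0.045 in control males, -0.166, -0.034 and 0.002 in LDC females and -0.327, -0.101 and -0.110 in control females. Every male array stood above every female array, and LDC and control arrays of a sex overlapped in males and in females. With Abcd2 as a 14th gene this separation was lost, since its low signals put Control male 2 (-0.378) and Control male 3 (-0.254) below every female array, of which Control female 1 (-0.103) was the lowest. These averages are descriptions, since genes are not replicates.

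Further genes of both pathways were read in the same way. Of 15 tested genes for other mitochondrial fatty acid, branched-chain and ketone body steps, 0 were called for LDC in either sex, against 0.278% of all probe sets in males and 0.122% in females. The unadjusted p was under 0.05 for 1 of them in males and 0 in females, where 10.2% and 9.01% of all probe sets passed. Between control males and control females 3 were called higher and 1 lower, beside 7.73% of all probe sets and 19.5% of the bright ones. Cpt1a, the rate-limiting entry enzyme of the carnitine shuttle, had 10093, 9992 and 9852 in control males, against 3330, 6188 and 6076 in control females (1.00 ± 0.18, adjusted p = 0.0042). In LDC mice it had 11770, 11787 and 10940 in males, against 4347, 4685 and 5852 in females (1.22 ± 0.18, adjusted p = 0.000876). Its other probe sets gave 0.48 and 0.01 in control mice, not called, and 1.12 and 1.20 in LDC mice, both called.

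Slc22a5, the carnitine importer of the plasma membrane, was higher in males by 1.03 in control mice (adjusted p = 0.0149) and 1.45 in LDC mice (adjusted p = 0.00146). Hsd17b10, a mitochondrial dehydrogenase of branched and short chains, differed by 0.42 (adjusted p = 0.0377) and 0.56 (adjusted p = 0.00873). Acad9 was lower in control males (-0.71, adjusted p = 0.0162). The importer Slc22a5, the entry enzyme Cpt1a and the inner membrane carrier Slc25a20 were each called higher in control males. Cpt1a was called at its brightest probe set only, as was Slc25a20 (second probe set adjusted p = 0.0519), whose call also depended on single arrays. Of the other carnitine enzymes Cpt2 was called, while Crot (-0.02) and Crat (0.54, adjusted p = 0.258) were not. The carnitine genes were not tested as a group.

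Of 32 other peroxisomal genes, 0 were called for LDC in either sex, where 4 in males and 1 in females had an unadjusted p under 0.05, beside the same 10.2% and 9.01% of all probe sets. Pex14, a docking protein for import into the peroxisome, came nearest, with 602, 676 and 528 in LDC males, against 902, 1032 and 883 in control males (-0.65 ± 0.15, adjusted p = 0.11). Its arrays were apart. Between control males and control females 5 of the 32 were called, beside the same 7.73% of all probe sets and 19.5% of the bright ones. All 5 were higher in males: Hao1, the glycolate oxidase (0.99, adjusted p = 0.000148), Nudt7, a coenzyme A hydrolase (1.41, adjusted p = 0.000903), Slc27a2, a very long-chain acyl-CoA synthetase (0.38, adjusted p = 0.0171), Pex14 (0.62, adjusted p = 0.0201) and Nudt12 (0.55, adjusted p = 0.0372). In LDC mice Hao1 (0.96, adjusted p = 0.000186) and Pex26, an anchor of the import machinery (0.89, adjusted p = 0.00461), were called higher in males.

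The remaining 12 members, among them the dehydrogenases Acads and Acadvl, the trifunctional subunit Hadha and the ketone thiolase Acat1, were not called in any comparison. Their LDC differences ran between -0.17 and 0.38 in males and between -0.08 and 0.27 in females, and their sex differences between -0.15 and 0.64 in control mice and between -0.19 and 0.51 in LDC mice. Further probe sets gave calls that the brightest did not. Acad11, an acyl-CoA dehydrogenase homolog, gave 0.51 at a second probe set in control mice (adjusted p = 0.00587), against 0.17 at the brightest, and the third probe set of Acsl4 is given above. In LDC mice, calls appeared at the second probe sets of Acaa2 (0.38, adjusted p = 0.0145) and Slc25a20 (0.61, adjusted p = 0.03) and at the third of Scp2 (1.06, adjusted p = 0.0335). At the second probe set of Slc25a20 in control mice the difference was 0.53 (adjusted p = 0.0519), and at the second of Abcd3 it was 0.34 (adjusted p = 0.768).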

How the data were processed

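Hepatic RNA of 12 mice was hybridized to Affymetrix Mouse Genome 430 2.0 arrays. The deposited signal intensities were computed by the authors, for each array separately, with the MAS 5.0 algorithm in GeneSpring 12.6.1, without detection calls. Of 45101 probe sets, 64 were controls and were not used. Symbols follow the platform annotation, brought up to date by gene ID (GRCm38.p6). Intensities were log2 transformed, and the 27022 probe sets at or above the 40th percentile of the mean (signal 48.6) were tested. All 4 groups entered 1 fit in limma 3.58.1 (R 4.3.3) with a mean for each (8 residual and 6.35 prior degrees of freedom, eBayes with trend), with Benjamini-Hochberg adjustment over all probe sets and calls at an adjusted p under 0.05. The fit was tested on simulated data. Confidence intervals are unadjusted. The methods' t-test, named for other measurements, was run on the same values with the same adjustment.

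Values per array are given for members called in any comparison and for those with the smallest p per compartment (3, 3 and 2) in 4 of the contrasts; Decr2 was added after its values were seen. Members and lists were chosen with earlier results of these data known. Alternatives were other filters, normalizations, a pseudocount of 32, separate fits, 1 probe set per gene, no trend, array weights, the second brightest probe set, a replicate block and each array left out. The number of arrays limits precision. Plots were made in Python 3.11.15 (matplotlib 3.10.9).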

Additional observations from a re-analysis of the deposited data

How the results depend on the processing

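The counts of members called for LDC in either sex and for the difference between the sexes were 0 under every alternative with all 12 arrays. With each array left out in turn they ranged from 0 to 2 in males (2 without Control male 1), stayed at 0 in females and ranged from 0 to 1 for the difference (1 without Control male 1). Between control males and control females 15 members were called, and with each array left out 7 to 17. With other settings the count was 6 with median centring, 5 with separate fits by exposure, 5 with eBayes without a trend and 0 with the methods' t-test. Calls over all probe sets also changed, from 969 higher and 1119 lower to 663 and 1306 with median centring. They were 467 and 579 with separate fits, and 474 and 610 without a trend. The methods' t-test called 2 higher and 5 lower of all probe sets between these groups, and 0 for LDC in either sex. Between LDC males and LDC females 8 were called, with each array left out 5 to 11, and 5 with median centring, 3 with eBayes without a trend and 1 with the methods' t-test. Over all probe sets 812 were called higher and 889 lower there, against 608 and 1181 with median centring and 481 and 437 without a trend. The median LDC difference of mitochondrial members in females (0.15) ranged from 0.01 to 0.22 with each array left out, and that of the difference between the sexes (-0.10) from -0.16 to 0.02. The other medians moved by less than the SD of the array averages between replicates. That spread is wider than the LDC medians in males and than the peroxisomal medians in females and for the difference. It is also wider than the mitochondrial median between LDC males and LDC females, so it says little about the stability of these. The LDC medians in males went from 0.02 to -0.03 (mitochondrial) and from 0.05 to -0.02 (peroxisomal) without Control male 3. The mitochondrial one was also -0.02 without LDC male 1. For the difference, the peroxisomal median ranged from -0.15 to 0.01 over the other settings. The peroxisomal median in females went from 0.13 to 0.06 without LDC female 3.

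Only 1 named value reversed its sign while called, Cpt2 between control males and control females, which was -0.64 at its second brightest probe set. Median centring put the median over all probe sets at -0.0751 for control males against control females and -0.1027 for LDC males against LDC females, where the deposited scaling gave -0.0167 and -0.0223, and turned the split of higher against lower calls in control mice to 663 and 1306, where it had been 969 and 1119. Why these settings moved the counts was not tested. With the replicate number as a block, 10 members were called in control mice and 8 in LDC mice, and none for LDC. Of all probe sets, 903 were then called higher and 1065 lower in control mice, and 777 and 804 in LDC mice. The replicate numbers were not taken to pair the samples, since the deviations of same-numbered arrays correlated at -0.028 to 0.059 over 18 pairs, near zero. That 8 of 12 arrays correlated best with their own number is a hint of pairing from the data, not from the design. Arrays with 3 per group limit what small differences could be called, and probe sets near the filter, such as those of Abcd2 in control males, have uncertain folds.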
